A study of Mus musculus with 12 samples.

Results

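The transcription factors that open gastrulation and set up the trophoblast were followed through the transition of mouse embryonic stem cells (ESCs) to epiblast-like cells (EpiLCs). The set holds 10 genes of the 57180 in the deposited tables, chosen by name: *T*, *Eomes*, *Mixl1*, *Mesp1*, *Gsc*, *Evx1*, *Tbx6*, *Cdx2*, *Elf5* and *Hand1*. All 10 were found under their symbols. Bulk RNA-seq covered 12 libraries in 4 groups of 3, namely Neg ESCs, 3×KD ESCs, Neg EpiLCs at day 2 and 3×KD EpiLCs at day 2. All 12 came from 1 picked clone of a male E14 line that carries a doxycycline (DOX)-inducible CRISPR interference repressor at the *Tigre* locus. Neg cells carry 4 scramble guide RNAs, and 3×KD cells carry guides against *Pcx*, *Me1* and *Me2*, the genes of pyruvate carboxylase and of the cytosolic and mitochondrial malic enzymes. Guides were integrated with piggyBac and selected with hygromycin. The labels do not name DOX, and the methods list DMSO or DOX for both lines, so DOX treatment of these 12 libraries was taken from a figure legend of the study. ESCs were kept in N2B27 medium with LIF, the GSK3 inhibitor CT99021 and a MEK inhibitor. EpiLCs were induced in N2B27 with Activin A, Fgf2 and the tankyrase inhibitor XAV939. The study describes its replicates in general as biological, and the labels only number them. The cell-type field of the labels names ESCs for all Neg libraries and EpiLCs for all 3×KD libraries, against their titles, and the titles were followed.

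In the mouse embryo, WNT, Nodal and BMP signals switch on the T-box factors T and EOMES and the homeobox factor MIXL1 in the primitive streak, where epiblast cells leave to form mesoderm and definitive endoderm. EOMES then activates *Mesp1* in the first mesoderm, GSC marks the anterior streak and organizer, EVX1 the posterior streak, and TBX6 the later presomitic mesoderm. In the trophoblast, CDX2, EOMES and ELF5 sustain the stem cell state and HAND1 drives giant cells. Several factors serve both lineages: *Eomes* is a gene of streak and trophoblast, *Cdx2* also patterns the posterior body, and *Hand1* is also used in extraembryonic and lateral mesoderm. None of these factors is a defining gene of naive or formative pluripotency.

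The guide targets and state markers followed the titles. *Pcx* was lower in 3×KD than in Neg by -1.14 on the log2 scale in ESCs and -1.05 in EpiLCs, *Me1* by -0.89 and -1.05, and *Me2* by -0.95 and -0.98, in each case with groups that did not overlap. All 7 formative markers rose and all 10 naive markers fell from ESCs to EpiLCs in both lines. Library totals ran from 11221023 to 19652197 estimated counts, so that a count of 0 allows up to 3 counts, or 0.153 to 0.267 CPM (counts-per-million) of the library total. This limit, like the intervals on counts, covers counting error only.

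Most of the 10 genes were close to the detection limit. Per length, in transcripts-per-million units (TPM) averaged over the 12 libraries, *Eomes* stood at 4.76 TPM, *Gsc* at 0.785, *Hand1* at 0.406, *Cdx2* at 0.324, *Mixl1* at 0.241, *Mesp1* at 0.209, *Tbx6* at 0.181, *T* at 0.165, *Elf5* at 0.0445 and *Evx1* at 0.0332. *Eomes* was first in all 4 groups, and its lowest library lay above every library of the next gene. In Neg ESCs the order went on with *Gsc* (1.79 ± 0.134 TPM, SD, n = 3), *Cdx2* (0.883 ± 0.106) and *Mixl1* (0.391 ± 0.122), and the libraries of these 3 did not overlap with each other. From *Mixl1* down to *Evx1*, neighbors in the order overlapped. In 3×KD ESCs *Gsc* kept the second place at 0.999 ± 0.394 TPM, whereas *Cdx2* stood seventh at 0.144 ± 0.0288 TPM, overlapping its neighbors *Tbx6* and *T*. In EpiLCs the second place went to *Hand1*, at 0.460 ± 0.142 TPM in Neg cells and 0.779 ± 0.311 in 3×KD cells. Below it all neighbors overlapped, apart from *Hand1* and *Mesp1* in 3×KD EpiLCs.

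A gene was judged in a comparison where its mean over the libraries compared reached 10 estimated counts. Below that its counts are given and no change is read. Medians and numbers of calls over the 10 genes include genes too low to judge. *T*, *Mesp1*, *Evx1*, *Tbx6* and *Elf5* were too low to judge in every comparison. *Eomes* could be judged in all of them, *Gsc* and *Mixl1* in all but the comparison of the lines in EpiLCs, *Hand1* in all but the comparison of the lines in ESCs, and *Cdx2* in all but the comparison of the lines in EpiLCs and the transition of 3×KD cells.

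**Figure D1:**
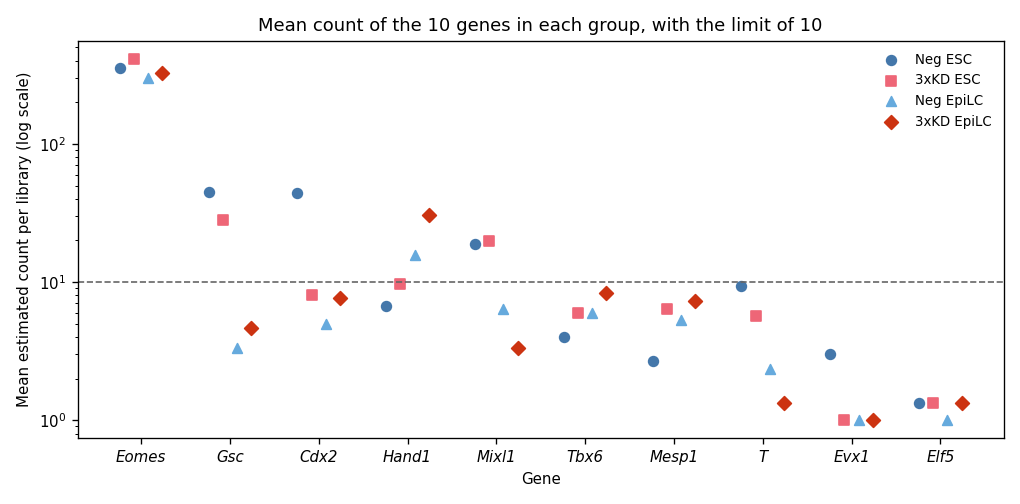
Mean estimated count per library (log axis) of each of the 10 genes in the 4 groups (3 libraries each), with a dashed line at 10 counts. *Eomes* is the only gene far above the line in every group, *Gsc*, *Cdx2*, *Hand1* and *Mixl1* cross the line between groups, and the other 5 genes lie below it in every group.

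All 10 genes are protein coding. In GRCm39 with the GENCODE vM39 annotation, *Cdx2* spans chr5:147237615-147244091 (minus strand), *Gsc* chr12:104437468-104439632 (minus), *Eomes* chr9:118307280-118315200 (plus), *Mixl1* chr1:180520608-180524599 (minus) and *Hand1* chr11:57719531-57723644 (minus). *T* spans chr17:8653062-8661328 (plus), *Evx1* chr6:52290483-52295363 (plus), *Mesp1* chr7:79441989-79443536 (minus), *Tbx6* chr7:126380655-126384732 (plus) and *Elf5* chr2:103242033-103281334 (plus). Some have partners whose reads could be exchanged with theirs, since the counting strand is known only from the directional library kit. The antisense RNA *Gscdt* overlaps *Gsc* and held 0 to 9 counts per library, *Gm33460* overlaps *Eomes* on the other strand with 3 to 18 counts, and *Evx1os* overlaps *Evx1* with 0 to 2 counts. *Gm64496* at *T*, *Gm33408* at *Eomes* and *Gm32915* at *Hand1* are in this annotation only and were not used here. Within 5000 bp of the *Tbx6* start lie the starts of *Gm9967* (2 to 8 counts) and *Ypel3* (86 to 280 counts), and near *Mesp1* that of the pseudogene *Gm44705* (at most 1 count).

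RefSeq promoters (GRCm38.p6 table, matched base for base to a single place in GRCm39) were at hand for 8 of the 10 genes, with 2 for *Elf5*, and none for *Mixl1* and *Hand1*. They are shown for *Cdx2* and *Gsc*, which differed most between groups, for *Eomes*, the abundant and steady gene, and for *T*, the classical streak gene. Each runs 5′ to 3′ on the strand of its gene and is cut where the GENCODE gene starts, leaving 218 bases for *Cdx2* (chr5:147244092-147244309, minus strand), 113 for *Gsc* (chr12:104439633-104439745, minus), 250 for *Eomes* (chr9:118307007-118307256, plus) and 57 for *T* (chr17:8653005-8653061, plus). Capitals mark a match to 1 of 4 motifs searched on both strands, no 2 of which overlapped: CTTTGA, the core read by TCF/LEF factors of the WNT pathway, TATAAA, the TATA box, TCACACCT, a site bound by T-box factors, and AATNCACA, from the consensus of the Nodal effector FOXH1.
Cdx2: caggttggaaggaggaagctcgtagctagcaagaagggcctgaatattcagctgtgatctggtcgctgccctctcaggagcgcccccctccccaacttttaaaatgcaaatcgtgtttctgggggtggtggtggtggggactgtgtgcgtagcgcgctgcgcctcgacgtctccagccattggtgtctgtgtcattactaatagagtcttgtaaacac
Gsc: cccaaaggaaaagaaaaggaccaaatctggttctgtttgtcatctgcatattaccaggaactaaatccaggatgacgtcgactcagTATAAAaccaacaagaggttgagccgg
Eomes: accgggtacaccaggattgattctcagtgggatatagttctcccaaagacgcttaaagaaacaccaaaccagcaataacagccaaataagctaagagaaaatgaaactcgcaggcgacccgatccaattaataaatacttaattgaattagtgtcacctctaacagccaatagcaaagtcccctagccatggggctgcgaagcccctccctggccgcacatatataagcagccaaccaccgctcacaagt
T: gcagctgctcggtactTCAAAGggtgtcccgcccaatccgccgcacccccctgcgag
*Gsc* holds TATAAA, ending 22 bases before its start, and *T* holds CTTTGA on the reverse strand, ending 36 bases before its start. The printed stretches of *Cdx2* and *Eomes* hold none of the 4. Over the whole 250 bases before each RefSeq start, CTTTGA was found in *T*, *Mesp1* (2 places) and 1 of the 2 *Elf5* promoters, against 13.9% of 32544 RefSeq promoters of the same length, and TATAAA in *Gsc* and *Tbx6*, against 12.3%. TCACACCT (1.12% of promoters) and AATNCACA (3.2%) were in none of the 9. CpG pairs numbered 22 in *Gsc*, 14 in *T*, 13 in *Cdx2*, 10 in *Evx1*, 8 in *Eomes*, 8 and 2 in the *Elf5* promoters, 6 in *Tbx6* and 2 in *Mesp1*, where the median of all promoters was 6. These are letters in a window, and nothing on binding follows from them.

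The first comparison asks what repression of the 3 guide targets does in naive cells. *Cdx2*, the caudal homeobox factor of trophectoderm and posterior body, fell, and none of the other 3 genes that could be judged passed the test. *Cdx2* held 31, 38 and 63 counts in the 3 Neg ESC libraries and 8, 7 and 9 in the 3×KD ESC libraries. Every Neg library was above every 3×KD library, and the low levels were close together. In normalized counts this was 2.86 ± 0.313 CPM in Neg and 0.502 ± 0.0811 CPM in 3×KD (SD, n = 3), a log2 fold change of -2.50 (SE 0.353, 95% interval -3.25 to -1.75, edgeR quasi-likelihood adjusted p = 2.09e-05), or 5.66-fold lower. In bulk RNA, fewer cells with *Cdx2* and less *Cdx2* RNA per cell cannot be told apart. Leaving out each library in turn kept the value between -2.62 and -2.40. *Cdx2* reached the count limit through Neg ESCs, and the 3×KD ESC libraries averaged 8 counts.

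*Gsc*, the homeobox gene of the anterior streak, held 34, 38 and 63 counts in Neg ESCs and 25, 39 and 20 in 3×KD ESCs. After scaling to the library size all 3 Neg libraries (2.62 to 3.21 CPM) lay above all 3 3×KD libraries (1.31 to 2.38 CPM). Its log2 fold change of -0.76 (SE 0.283, 95% interval -1.36 to -0.16) had an edgeR adjusted p of 0.0434 and was not called. Over all alternatives that p ran from 0.0147 to 0.161. *Eomes* held 263, 354 and 453 counts in Neg ESCs and 396, 455 and 392 in 3×KD ESCs. At 23.6 ± 0.678 and 25.9 ± 1.72 CPM the groups overlapped, and the log2 fold change of 0.13 (95% interval -0.01 to 0.28, adjusted p = 0.135) was not called. *Mixl1*, the Nodal- and WNT-responsive homeobox gene of the streak, held 13, 21 and 23 counts against 14, 21 and 24. Its log2 fold change was -0.03, with a 95% interval from -0.97 to 0.92 that includes changes of either sign (adjusted p = 0.983).

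Of the 10 genes, 1 was thus called lower and 0 higher, where 6.76% of the 25446 genes tested were called lower and 8.5% higher. At an unadjusted p under 0.05, edgeR gave 0 members higher and 2 lower, and DESeq2 called 0 higher and 1 lower. The median log2 fold change of the 10 was -0.04 and that of all genes 0.03. The lower-count members are given by their counts. *T* held 2, 9 and 17 counts in Neg ESCs and 4, 7 and 6 in 3×KD ESCs, so that its 3 Neg libraries spanned a wider range than the gap between the groups. *Hand1* held 5 to 9 counts against 8 to 13, *Mesp1* 1 to 5 against 2 to 9, *Tbx6* 1 to 6 against 5 to 8, *Evx1* 1 to 6 against 1 in each library, and *Elf5* 1 to 2 against 0 to 2.

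**Figure D2:**
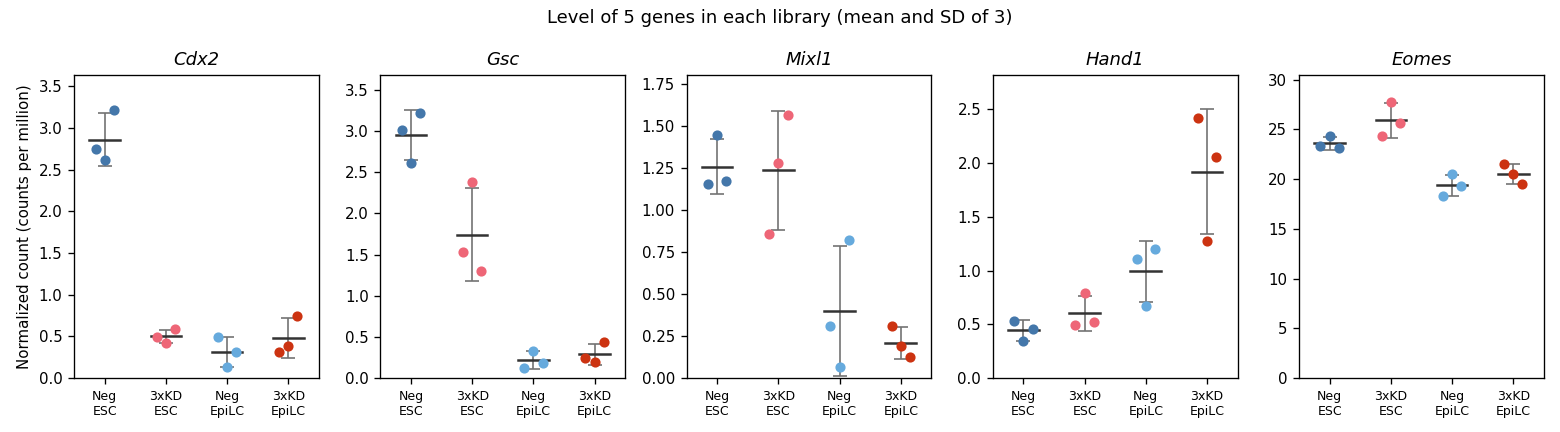
Normalized counts (CPM, linear axes from 0) of *Cdx2*, *Gsc*, *Mixl1*, *Hand1* and *Eomes* in each of the 12 libraries, with the mean (bar) and SD (whiskers) of the 3 libraries of a group. *Cdx2* is at 2.62 to 3.21 CPM in Neg ESCs and under 0.75 CPM in all other libraries, *Gsc* and *Mixl1* are lower in EpiLCs, and *Hand1* is highest in 3×KD EpiLCs.

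The second comparison asks the same after 2 days of induction. *Hand1*, the bHLH factor of giant cells and extraembryonic mesoderm, was the only gene besides *Eomes* with enough counts. It held 18, 10 and 19 counts in Neg EpiLCs and 39, 20 and 33 in 3×KD EpiLCs. All 3 3×KD libraries lay above all 3 Neg libraries, the lowest of them narrowly. The means were 0.994 ± 0.283 and 1.92 ± 0.584 CPM, a log2 fold change of 0.94 (SE 0.319, 95% interval 0.26 to 1.62), and the edgeR adjusted p of 0.0279 did not reach the limit of 0.01. Over all alternatives the adjusted p ran from 0.0103 to 0.132.

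*Eomes* held 297, 305 and 306 counts in Neg EpiLCs and 347, 321 and 312 in 3×KD EpiLCs. The normalized levels of 19.4 ± 1.09 and 20.5 ± 1.03 CPM overlapped, with a log2 fold change of 0.08 (95% interval -0.06 to 0.23, edgeR adjusted p = 0.398). Thus 0 of the 10 genes were called in either direction, against 7.88% of all genes called higher and 5.35% called lower. At an unadjusted p under 0.05, edgeR gave 1 gene higher (*Hand1*) and 0 lower, and DESeq2 called 0. The median log2 fold change was 0.39 over the 10 and 0.03 over all genes, with 8 of the 10 under the count limit.

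*Gsc* had fewer counts in every EpiLC library than in any ESC library of either line, and *Mixl1* had fewer on average. For *T*, too low to judge, no change is read. *T* held 3, 2 and 2 counts in Neg EpiLCs and 2, 1 and 1 in 3×KD EpiLCs. *Mixl1* held 5, 1 and 13 counts against 5, 3 and 2, the single Neg library with 13 counts standing above the other 5. *Gsc* held 2 to 5 counts against 3 to 7, and *Cdx2* 2 to 8 against 5 to 12. *Mesp1* held 2 to 10 counts against 5 to 11, *Tbx6* 4 to 8 against 7 to 10, *Evx1* 0 to 3 against 0 to 2 and *Elf5* 0 to 2 in both. The zeros of *Evx1* and *Elf5* allow up to 0.178 to 0.200 CPM in the libraries that had them.

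The third comparison follows control cells from ESCs to EpiLCs, and it shares the Neg ESC libraries with the first. *Gsc* and *Cdx2* fell, whereas *Eomes* moved little. Both falling genes reached the count limit through Neg ESCs, at means of 45.0 and 44 counts. They averaged 3.33 and 5 counts in Neg EpiLCs, so the size of each fold is uncertain. *Gsc* went from 34, 38 and 63 counts to 2, 5 and 3, or from 2.95 ± 0.304 to 0.216 ± 0.109 CPM, with no overlap. Its log2 fold change was -3.74 (SE 0.383, 95% interval -4.55 to -2.93, edgeR adjusted p = 3.78e-07). *Cdx2* went from 31, 38 and 63 counts to 8, 2 and 5, or from 2.86 ± 0.313 to 0.314 ± 0.179 CPM, again with no overlap. Its log2 fold change was -3.14 (SE 0.380, 95% interval -3.95 to -2.33, adjusted p = 2.75e-06).

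*Mixl1* had a log2 fold change of -1.62 (SE 0.511, 95% interval -2.71 to -0.54) between Neg ESCs and Neg EpiLCs, with an edgeR adjusted p of 0.0158 that missed the limit. With each library left out it ran from -2.66, where it was called (without the Neg EpiLC library of 13 counts), to -1.12 (without Neg EpiLC replicate 2, adjusted p = 0.0591). *Hand1* had a log2 fold change of 1.16 (SE 0.386, 95% interval 0.34 to 1.98, adjusted p = 0.0214) and was not called. With each library left out it ran from 1.01 (without Neg EpiLC replicate 3, adjusted p = 0.0787) to 1.40, where it was called (without Neg EpiLC replicate 2, of 10 counts). *Eomes* passed the limit on p (adjusted p = 0.00285) but its log2 fold change of -0.28 (95% interval -0.43 to -0.14) was under the fold limit of 0.58. *T*, too low to judge, held 2, 9 and 17 counts in Neg ESCs and 2 or 3 in each Neg EpiLC library. It passed both limits once Neg ESC replicate 1, its library of 2 counts in ESCs, was left out, and no change is read from that fit.

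In all, 2 of the 10 genes were called lower and 0 higher in control cells, against 11% and 9.78% of all genes. At an unadjusted p under 0.05, edgeR gave 1 gene higher and 5 lower, and DESeq2 called 0 higher and 2 lower. The median log2 fold change of the 10 was -0.93 and that of all genes 0.01.

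In 3×KD cells the same step, which shares no library with the Neg step, gave 2 genes lower (*Gsc* and *Mixl1*) and 1 higher (*Hand1*), against 9.32% and 9.42% of all genes. *Gsc* went from 1.74 ± 0.564 to 0.292 ± 0.128 CPM, a log2 fold change of -2.54 (SE 0.376, 95% interval -3.34 to -1.74, edgeR adjusted p = 2.96e-05). *Mixl1* went from 14, 21 and 24 counts to 5, 3 and 2, and from 1.24 ± 0.356 to 0.209 ± 0.0939 CPM, with no overlap. Its log2 fold change was -2.51 (SE 0.564, 95% interval -3.71 to -1.32, adjusted p = 0.00152). *Hand1* went from 8, 13 and 8 counts to 39, 20 and 33, every EpiLC library standing above every ESC library. Its log2 fold change was 1.66 (SE 0.340, 95% interval 0.94 to 2.38, adjusted p = 0.000715). *Gsc* and *Mixl1* reached the count limit through 3×KD ESCs (means of 28 and 19.7 counts), with 4.67 and 3.33 in 3×KD EpiLCs. *Hand1* reached it through 3×KD EpiLCs, at 30.7 counts against 9.67 in 3×KD ESCs. *Cdx2* held 8, 7 and 9 counts in 3×KD ESCs and 5, 6 and 12 in 3×KD EpiLCs, too few to judge and overlapping. *Eomes* again stayed under the fold limit, at -0.34 (95% interval -0.48 to -0.19, adjusted p = 0.000655).

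**Figure D3:**
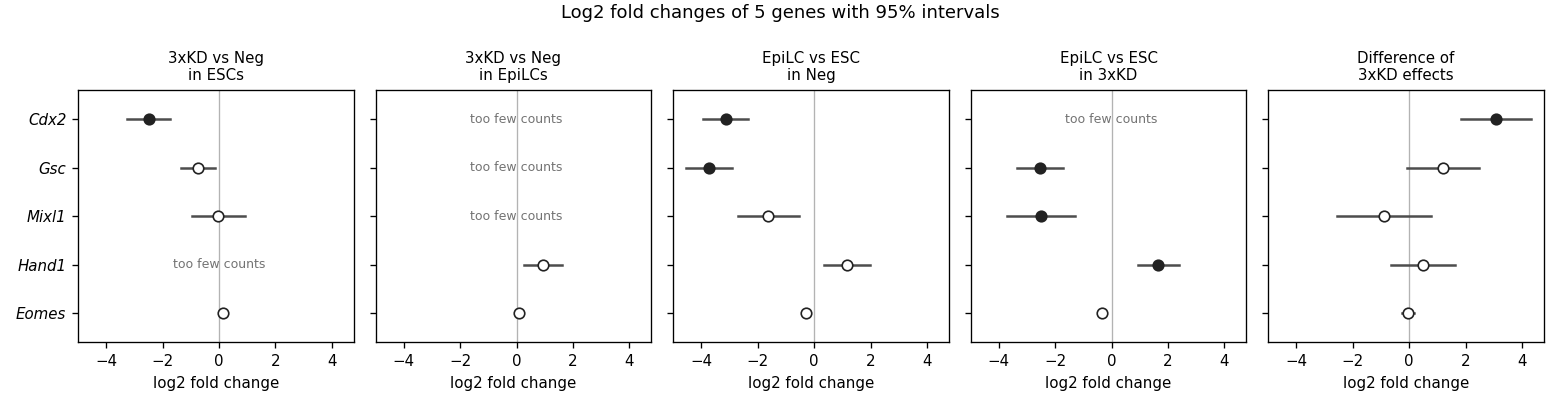
Log2 fold change (horizontal axis) with its 95% interval for *Cdx2*, *Gsc*, *Mixl1*, *Hand1* and *Eomes* in the 4 comparisons of groups and for the difference between the 3×KD effects in EpiLCs and ESCs. Filled points were called, open points were not, and genes under 10 counts per library have no point. *Cdx2* is at -2.50 in ESCs and 3.08 for the difference, and *Eomes* is within 0.34 of 0 throughout.

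Whether the effect of the 3×KD guides differed between the states was tested with an interaction term. *Cdx2* was called: its 3×KD effect was higher in EpiLCs than in ESCs by 3.08 on the log2 scale (SE 0.585, 95% interval 1.84 to 4.33, edgeR adjusted p = 0.00135). Its level was high in Neg ESCs alone, with 7 to 9 counts in 3×KD ESCs, 2 to 8 in Neg EpiLCs and 5 to 12 in 3×KD EpiLCs. *Cdx2* reached the count limit for this test through Neg ESCs, at a mean of 44 counts. The other groups averaged 8, 5 and 7.67 counts. The term therefore carries the fall in ESCs and cannot show what the guides do to *Cdx2* in EpiLCs. With transcript-length offsets the difference was 3.06 and its adjusted p of 0.0103 lay just above the limit. The difference was 1.20 for *Gsc* (95% interval -0.07 to 2.47, adjusted p = 0.213), -0.89 for *Mixl1* (-2.56 to 0.77, 0.533), 0.50 for *Hand1* (-0.63 to 1.62, 0.623) and -0.05 for *Eomes* (-0.26 to 0.16, 0.809). Of the 10 genes 1 was called higher and 0 lower, against 4.76% and 5.27% of all genes. No member was lower at an unadjusted p under 0.05, and DESeq2 called 0 lower.

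Other genes of the same pathways were taken as lists. Of all genes tested, 8.5% were called higher and 6.76% lower in 3×KD ESCs, and 7.88% and 5.35% in 3×KD EpiLCs. Of 25 further streak and mesoderm genes, 23 were tested. In ESCs 3 (13%) were called higher and 3 (13%) lower in 3×KD, with a median log2 fold change of 0.25. The largest falls were *Nkx1-2*, a homeobox gene of the posterior axis (-3.07, SE 0.225), *Sp5*, a zinc finger gene and direct WNT target (-2.48, SE 0.139), and *Cdx4*, a caudal gene like *Cdx2* (-2.13, SE 0.567). *Cdx4* averaged 6.17 counts per library, under the limit used for the members, and DESeq2 called only 2 genes lower, without *Cdx4*. The rises were *Foxc2*, a forkhead gene of mesoderm (1.90, SE 0.292), *Dll1*, a Notch ligand (0.83, SE 0.0694), and *Cdx1*, the third caudal gene (0.69, SE 0.125). In EpiLCs 0 were called higher and 3 (13%) lower, with a median of -0.17. The 3 were *Nkx1-2* (-2.86, SE 0.522, at a mean of 8.5 counts), the ligand gene *Wnt8a* (-1.75, SE 0.209) and *Hoxb1* (-1.19, SE 0.227). At an unadjusted p under 0.05, edgeR gave 3 higher and 5 lower in EpiLCs, and DESeq2 called 0 higher and 3 lower. The summed level of the list was 91.5 to 96.4 CPM in Neg ESCs and 80.9 to 87.9 in 3×KD ESCs. In EpiLCs it was 222 to 229.7 in Neg and 236 to 247 in 3×KD. In each group 14 to 16 of its 25 genes were under 1 CPM. *Lefty2* averaged 115 CPM in Neg EpiLCs and 151 in 3×KD EpiLCs, against 0.464 and 0.691 in ESCs. *Dll1* averaged 76.9 and 68.4 CPM in EpiLCs. The higher sums of EpiLCs against ESCs rest largely on *Lefty2*. Between the EpiLC groups the mean of *Lefty2* differed by more than the sums did. The other genes of the list together were therefore lower in 3×KD than in Neg EpiLCs.

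Of 25 further trophoblast genes, 22 were tested. In ESCs 9 (40.9%) were called higher and 3 (13.6%) lower in 3×KD, with a median log2 fold change of 0.64. In EpiLCs 11 (50%) were called higher and 2 (9.09%) lower, with a median of 0.51. Over all genes the shares were 8.5% and 6.76% in ESCs, and 7.88% and 5.35% in EpiLCs. DESeq2 called the same 11 higher in EpiLCs but 0 lower, so that the calls of *Gata3* and *Tfap2a* there were lost. The largest rises in ESCs were *Krt7*, a simple-epithelium keratin (2.17, SE 0.218), *Fgfr2*, the receptor for trophoblast FGF signals (1.55, SE 0.125), and *Dlx3*, a homeobox gene of the placenta (1.35, SE 0.205). The falls were *Tfap2a* (-2.13, SE 0.121), which encodes an AP-2 factor, the ligand gene *Bmp4* and *Sox21*. The 3 largest changes in EpiLCs were *Gata3* (-1.62, SE 0.421, at a mean of 6.17 counts), *Krt7* (1.44, SE 0.215) and *Krt8* (1.43, SE 0.119). Many of the genes that rose, the keratins and *Ets2* among them, are not particular to trophoblast. Also called higher were *Esx1*, *Plet1* and *Rhox9* in both states, and *Rhox6*, *Tead4*, *Tfap2c* and *Cdh3* in EpiLCs. *Tead4* and *Tfap2c* averaged 22.0 and 38.8 CPM in Neg ESCs and 1.225 and 3.79 in Neg EpiLCs. Their 2.30 and 8.82 CPM in 3×KD EpiLCs stayed below the ESC levels. From Neg ESCs to Neg EpiLCs, *Cdh3* went from 4.24 to 14.8 CPM and *Rhox6* from 4.45 to 3.86. The genes of the list too low to test were *Prl3d1*, at 0 in every library of all 4 groups, *Tpbpa*, at 0 in 3 groups, and *Prl2c2*, at 0 in 2. *Gcm1* of the same list averaged 0.120 CPM in Neg ESCs and 1.54 in Neg EpiLCs, and 0.314 and 0.898 in 3×KD. *Elf5*, of the stem cell state, held at most 2 counts in any library. *Wnt7b* made up most of the counts of the list, at 1294 to 3585 CPM with a wide range within groups. Without it the sum was 235 to 238 CPM in Neg ESCs, 274 to 292 in 3×KD ESCs, 110.1 to 113 in Neg EpiLCs and 186 to 193 in 3×KD EpiLCs. The higher sum of 3×KD ESCs rests largely on *Ets2*, at 42.9 CPM in Neg and 81.2 in 3×KD ESCs. In EpiLCs *Ets2* averaged 24.5 and 49.0 CPM.

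**Figure D4:**
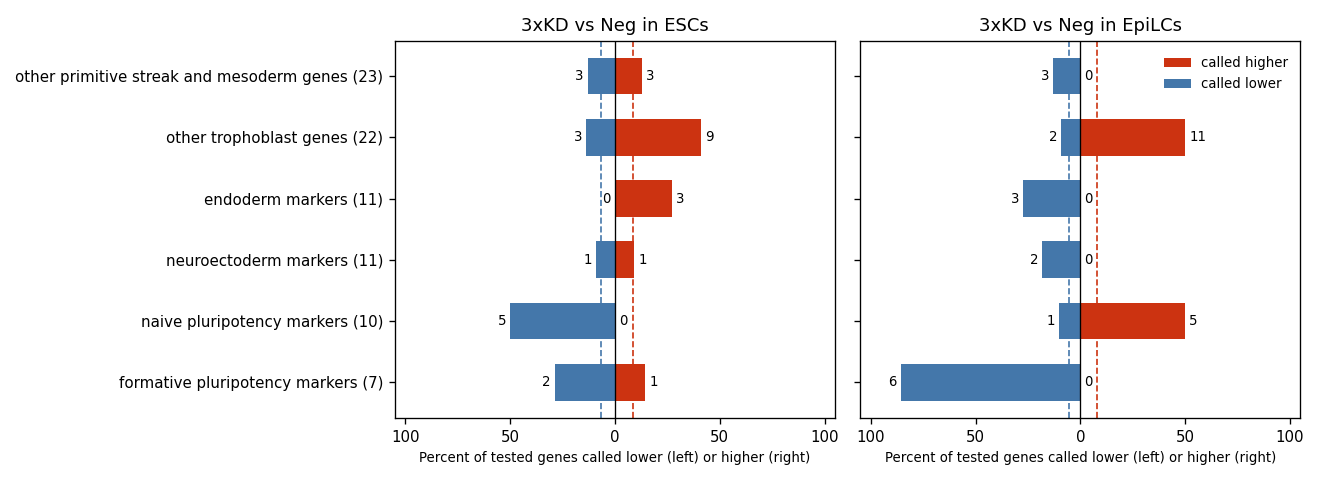
Percent of the tested genes of 6 lists called lower (blue, left) or higher (red, right) in 3×KD against Neg, in ESCs and EpiLCs. Numbers beside bars are genes called, those in brackets genes tested, and dashed lines the percent over all genes. In the trophoblast list 9 of 22 genes were called higher in ESCs and 11 of 22 in EpiLCs.

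Markers of other states moved beside these genes, and their part in the results was not tested. For these and the marker lists below, the shares over all genes were 8.5% higher and 6.76% lower in 3×KD ESCs. In 3×KD EpiLCs they were 7.88% and 5.35%. In ESCs 5 of 10 naive markers were called lower and 0 higher in 3×KD, led by *Zfp42* (-1.27), *Nr0b1* (-0.94) and *Klf2* (-0.83), and the sum of all 10 was 5181 to 5344 CPM in Neg and 4029 to 4105 in 3×KD. At an unadjusted p under 0.05, edgeR gave 1 naive marker higher and 9 lower in ESCs, and DESeq2 called 0 higher and 5 lower. In EpiLCs 5 naive markers were higher, with *Dppa3* (1.28), *Nanog* (1.07) and *Esrrb* (0.89) in front, and 1 was lower (*Nr0b1*, -0.84), and the sum was 343 to 358 CPM in Neg and 476 to 489.5 in 3×KD.

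Of the 7 formative markers, *Otx2* (-1.20) and *Lin28b* (-0.72) were lower and *Sox3* (0.59) higher in 3×KD ESCs, at a summed 297 to 302 CPM in Neg and 227 to 243 in 3×KD. In EpiLCs 6 of the 7 were lower and 0 higher (0 at an unadjusted p under 0.05 in edgeR and 0 by DESeq2), with *Pou3f1* at -1.83, *Dnmt3b* at -1.04 and *Fgf5* at -1.01. Their sum was 2391 to 2694 CPM in Neg and 1284 to 1317 in 3×KD. Of the streak genes, *T*, *Mixl1*, *Mesp1*, *Evx1* and *Tbx6* had 13 counts or fewer in every EpiLC library and *Gsc* 7 or fewer, whereas *Eomes* held 297 to 347.

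Among 11 endoderm markers tested of 12, *Dab2* (1.20), *Foxa1* (1.15) and *Gata6* (0.78) were higher in 3×KD ESCs, and 0 were lower (0 at an unadjusted p under 0.05 in edgeR and 0 by DESeq2). In EpiLCs *Sox7* (-2.23), *Cubn* (-1.10) and *Gata6* (-1.02) were lower and 0 were higher (2 at an unadjusted p under 0.05 in edgeR and 0 by DESeq2). The summed level was 22.9 to 27.1 CPM in Neg ESCs, 36.7 to 38.0 in 3×KD ESCs, 33.8 to 39.6 in Neg EpiLCs and 31.7 to 33.6 in 3×KD EpiLCs, and *Ttr* was at 0 in all EpiLC libraries. Of 11 neuroectoderm markers, *Zic1* (1.07) was higher and *Tubb3* (-0.62) lower in 3×KD ESCs, and DESeq2 called *Tubb3* but 0 higher. In either direction this is 9.09% of the markers, near the shares of all genes. *Sox1* (-1.60) and *Nes* (-0.73) were lower in 3×KD EpiLCs and 0 were higher (0 at an unadjusted p under 0.05 in edgeR and 0 by DESeq2). The sum of these markers was 119.6 to 133 CPM in Neg ESCs, 112 to 117 in 3×KD ESCs, 139.7 to 144 in Neg EpiLCs and 74.6 to 76.9 in 3×KD EpiLCs.

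For *Cdx2*, *Gsc*, *Mixl1*, *Hand1* and *Eomes*, each above 10 counts on average over the 12 libraries, the genes of most similar pattern were sought among 15029 others by the root mean square difference of centered log2 CPM, as a description over 12 libraries that share 4 groups. For *Cdx2* these were *Lrrn2* (0.449), *Cttnbp2* (0.454) and *S100a6* (0.507), where *Cdx2* itself varied by 1.24 around its mean. For *Gsc* they were *1700097N02Rik*, *Ccdc141* and *Zc3hav1* (0.351 to 0.354, own variation 1.54), and for *Mixl1* *Tagln3*, *Stmn3* and *Adamts8* (0.386 to 0.514, own variation 1.23). *Hand1* was closest to *2610017A05Rik*, *Gpr153* and *Adcyap1r1* (0.257 to 0.265, own variation 0.797), and the flat *Eomes* to *Wdr91*, *Ift140* and *Nfya* (0.0530 to 0.0544, own variation 0.175).

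The transcript estimates behind the gene sums moved between libraries. *Cdx2*, *Gsc*, *Mixl1* and *Mesp1* have 1 annotated transcript each. For *Eomes*, 84.1% of the counts lay on ENSMUST00000035020, and 11.8% and 4.08% on the others. For *Hand1*, all reads were given to ENSMUST00000160392 in 3 libraries (5, 8 and 19 counts) and to ENSMUST00000036917 in the other 9, so only gene sums were compared, and the TPM of *Hand1* depends on this choice.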

How the data were processed

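RNA was taken from 12 libraries of Neg and 3×KD cells, as ESCs and EpiLCs day 2, grouped by sample titles. Libraries were rRNA-depleted, directional and single-end by the protocols, although the molecule field gives polyA RNA. The authors trimmed reads with Trim Galore 0.6.7, mapped them to GRCm39 with STAR 2.7.9a and quantified transcripts with Salmon 1.10.1. The deposited estimated counts are not normalized, and the deposited TPM are scaled by the authors' quantifier to transcript length and library total. Here both were summed per gene and the counts rounded, which leaves out transcript-length offsets, tried as an alternative. Genes with at least 10 counts in all (25446 of 57180) were fitted with edgeR 4.0.16 (R 4.3.3, TMM, quasi-likelihood, all 12 libraries, 4 groups), and CPM are TMM-normalized. A call needed a Benjamini-Hochberg adjusted p (over all 25446 genes) under 0.01 and a log2 fold change beyond 0.58 in either direction, except that the difference between states was called on p alone. Each SE was computed from the log2 fold change and its quasi-likelihood F, and the 95% intervals from that SE. At low counts both are approximate and need not match the p exactly. The study tested with DESeq2, which is an alternative here (1.42.0), beside other scalings, filters, thresholds, a replicate block and each library left out. The script was tested on simulated data. No replicate pair was a repeat (chi-square per degree of freedom 2.99 to 18.4).

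The members and lists were chosen with earlier results of these data known. Named genes are the 10 members, the guide targets, up to 3 largest called changes per list in each comparison of 3×KD with Neg, the 3 genes nearest in pattern to each judged member (mean of at least 1 CPM), and annotated genes overlapping a member or starting within 5000 bp of its start. *Bmp4*, *Sox21*, *Ets2*, *Tpbpa*, *Prl3d1*, *Prl2c2*, *Wnt7b* and *Ttr* were named after their values were seen. So were *Lefty2*, *Gcm1*, *Esx1*, *Plet1*, *Rhox6*, *Rhox9*, *Tead4*, *Tfap2c* and *Cdh3*. Of the genes, 99.0%, holding 99.9% of counts, are in GENCODE vM39.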

Additional observations from a re-analysis of the deposited data

Results flagged for a closer look

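The effect of the 3×KD guides on *Cdx2* differed between the states by the interaction term of the edgeR fit, by 3.08 on the log2 scale (SE 0.585, adjusted p = 0.00135). The 3×KD effect was -2.50 in ESCs, from 31 to 63 counts per library in Neg to 7 to 9 in 3×KD. In EpiLCs both lines were low, with 2 to 8 counts in Neg and 5 to 12 in 3×KD, a mean of 6.33 per library that is too few to judge a change there. Only Neg ESCs averaged above 10 counts, so the difference carries the fall in ESCs and cannot show what the guides do to *Cdx2* in EpiLCs. All 3 ESC libraries of the 3×KD line were lower than all 3 of the Neg line, and the EpiLC libraries overlapped. Leaving out each library in turn gave 2.59 to 3.53 and kept the call. No other member was called by this test.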

How the results depend on the processing

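The limits are those of depth: 5 of the 10 genes averaged under 10 counts per library in every comparison, and *Cdx2*, *Gsc*, *Mixl1* and *Hand1* did so in part of the comparisons, so for these nothing can be said on changes beyond their counts. At an adjusted p under 0.05 with no fold limit, 2 members would be called in ESCs (*Cdx2* and *Gsc*), 1 in EpiLCs (*Hand1*), 6 in the Neg and 5 in the 3×KD transition, with 10142, 9694, 11231, 10838 and, for the difference between states, 4127 genes called in all. With transcript-length offsets 0 members were called for the difference between states and 731 genes in all, against 1 and 2553, and the cause was not tested. With a minimum mean of 5 counts, 7 members would be judged in ESCs, 5 in EpiLCs and 7 in the 3×KD transition. With a minimum of 20, 3 would be judged in the Neg transition, 2 in the 3×KD transition and 2 for the difference between states.

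Of the log2 fold changes of single members, 204 kept direction and call under the alternatives other than leaving out a library, 8 gained a call, 1 lost it (the difference between states of *Cdx2*, 3.06 with transcript-length offsets, adjusted p = 0.0103) and 1 changed sign, the difference between states of *Eomes* with library size alone (0.021 in place of -0.05, not called in either). Apart from the lower threshold, the gain was that of *Mixl1* in the Neg transition, with no filter (adjusted p = 0.00149) and with robust estimation (0.00326). With each library left out, 144 values kept direction and call, 2 gained a call (*Mixl1* and *Hand1* in the Neg transition, at -2.66 and 1.40; *T*, called there without Neg ESC replicate 1, is too low to judge and not in this tally) and 4 changed sign, these last uncalled in every fit: *Mixl1* in ESCs ran from -0.23 to 0.21, the difference between states of *Mixl1* from -1.39 to 0.15 (positive without Neg EpiLC replicate 3) and that of *Eomes* from -0.12 to 0.0026. The number of members called in the Neg transition ran from 2 to 3, and in the other comparisons it did not move. The main scaling put the median log2 fold change of all genes within 0.032 of 0, and no other scaling moved it beyond 0.093. With library size alone, 1522 genes were called higher and 824 lower for the difference between states, against 1211 and 1342.

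The replicate numbers share no stated origin, and same-numbered libraries did not deviate together (correlations -0.14 to 0.10). With the replicate block the counts of members called were 1 in ESCs, 0 in EpiLCs, 2 and 3 in the transitions and 1 for the difference between states, as without it, where *Cdx2* was at 3.08.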
